A study of Rattus norvegicus with 3 samples.

Results

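Binding of the nuclear pore protein Seh1 was examined at 8 genes of thyroid hormone signalling in the rat oligodendrocyte lineage by chromatin immunoprecipitation and sequencing (ChIP-seq). The genes were the receptors Thra and Thrb, their partner Rxra, the corepressor Ncor1, the deiodinases Dio2 and Dio3, and the hormone targets Klf9 and Hr. They were chosen by name, with earlier results of these data known. An OPC peak was counted for a gene when the authors' annotation gave that gene as the nearest transcription start site (TSS), and an iOL peak when it lay between OPC peaks of 1 gene. The 8 genes held 3 of 6704 iOL peaks, all at Thrb, and 10 of 9084 annotated OPC peaks, at Thrb, Rxra and Dio3. Under this rule only genes with more than 1 OPC peak, here Thrb and Rxra, could have an iOL peak counted. None of the 8 encodes a transporter of the hormone, so transporters were taken from a wider list of 45 pathway genes described further on.

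Immature oligodendrocytes (iOL) had received triiodothyronine (T3) at 60 nM for 1 day, with the growth factors PDGF-AA, bFGF and NT3 withdrawn. Oligodendrocyte progenitor cells (OPC) were kept with these growth factors and no added T3. Both were cultured from the forebrain of Sprague Dawley rats aged 1 to 2 postnatal days, in medium that kept CNTF, N2 and B-27. The B-27 supplement is known to contain T3, so the OPC medium was not free of hormone. The labels name no genetic change in the cells. Each stage had 1 Seh1 library, and 1 IgG library of iOL was not analysed here. No IgG library of OPC is listed. The input name of the OPC annotation joins Seh1 in OPC with IgG in iOL. The OPC peaks may thus have been called against a control of the other stage, which the sources do not state. The sources used here do not say whether animals or cultures were pooled. The lists hold 6704 iOL peaks of 209 bp and 9117 OPC peaks of 205 bp on build rn6. Library depth is unknown because read totals are not given, and no replicate error exists. Every comparison therefore describes these libraries and carries no test, and a peak list does not show whether a gene is expressed.

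Thyroid hormone acts through nuclear receptors that sit on DNA as heterodimers with a retinoid X receptor. Without T3 they recruit corepressors such as NCoR1 with histone deacetylase 3, and with T3 they exchange these for coactivators. Cells set their own T3 level by importing hormone, by activating T4 through deiodinase type 2 and by inactivating hormone through deiodinase type 3. In the oligodendrocyte lineage T3 is known to end OPC division and to start differentiation.

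An OPC peak was found at 3 of the 8 genes, while 30.1% of 18539 coding genes had one. The 3 genes also had a peak within 50 kb of the TSS, where 22.1% of coding genes had one, and so within 100 kb, where 25.9% had one. Thrb had 5 OPC peaks, Rxra 4 and Dio3 1. Thra, Ncor1, Dio2, Klf9 and Hr had 0. The overall share of genes with a peak was thus close to that among all genes, and the peaks were concentrated at Thrb and Rxra. At least 4 OPC peaks were found at 1.63% of coding genes and at least 5 at 0.685%. The length of genome around each gene was not measured on rn6, so these counts are not scaled to it.

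**Figure D1:**
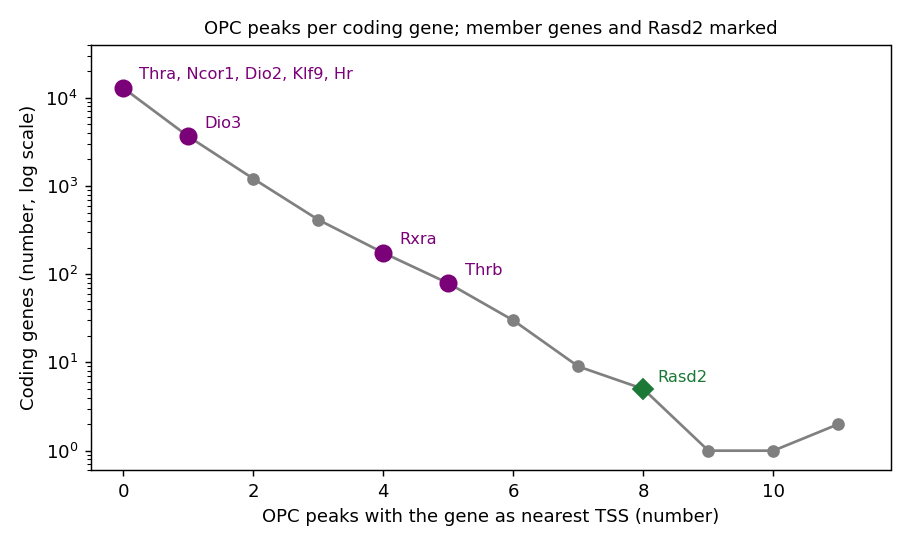
Number of OPC peaks per coding gene (x axis) and number of coding genes with that many (y axis, log scale). Purple points carry the 8 genes of thyroid hormone signalling and the green diamond carries Rasd2, a T3 target of the wider list; Thrb stands with 79 genes at 5 peaks and Rxra with 175 genes at 4 peaks, these genes included.

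Thrb encodes thyroid hormone receptor beta. In iOL it had 3 peaks, centred 32925 bp downstream of its TSS and upstream at -70644 and -242016 bp. They lay on chromosome 15 at 9206786 to 9206994, at 9310355 to 9310563 and at 9481727 to 9481935. In OPC it had 5 peaks spread over 514.2 kb, of which 1 covered the TSS. No iOL peak of Thrb overlapped an OPC peak.

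The OPC peak at the Thrb TSS (chromosome 15, 9239800 to 9240004) was centred at -87 bp and was classed as promoter. Its score was 6.38, where the score is the caller's own value in the authors' deposited table, and 18.6% of annotated OPC peaks scored as low or lower. A promoter-class OPC peak was found at 1.9% of coding genes. Its focus ratio, a value from 0 to 1 that the caller reports per peak, was 0.611 against a median of 0.778 over all annotated OPC peaks, and 4.25% of peaks were at or below it. The promoter peak of Thrb was therefore among the weaker and less focused calls of the OPC list. The nearest iOL peak to it was centred 33.0 kb away.

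A pair of OPC peaks lay in introns of Thrb. The peak in intron 1 of 10 (9205353 to 9205557) was at 34.4 kb with a score of 7.02, and that in intron 3 of 10 (9080154 to 9080358) at 159.6 kb with a score of 7.66. The other two lay upstream between genes, at -246.3 kb (9486026 to 9486230, score 7.66) and at -354.5 kb (9594166 to 9594370, score 5.75). The score of 5.75 was the lowest among the 10 peaks, and 1.86% of annotated OPC peaks scored as low or lower. None of the 5 scores exceeded the list's median of 7.66.

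At 2 places iOL and OPC peaks of Thrb were close without overlapping. In intron 1 the iOL peak at 32.9 kb was centred 1435 bp from the OPC peak at 34.4 kb. Far upstream the iOL peak at -242.0 kb was centred 4297 bp from the OPC peak at -246.3 kb. The third iOL peak, at -70.6 kb, had no OPC peak of Thrb nearer than 70.6 kb. Thrb was thus called in both lists at nearby but different positions, and at its TSS in OPC alone.

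The 3 iOL peaks within the 514.2 kb between the outermost OPC peaks amount to 5.83 peaks per Mb (exact Poisson 95% interval 1.2 to 17.0, counting error only). Chromosome 15 held 2.04 iOL peaks per Mb over its length, taken as the largest peak end, which lies inside the interval. At Rxra the same measure was 0 per Mb, with an interval of 0 to 43.1. The rule that counted the peaks also set the span, so these values describe the genes and test nothing. Of 79 coding genes with 5 OPC peaks, 70.9% had an iOL peak between them and 16.5% had 3 or more, with a median of 1. Another iOL peak (9674591 to 9674799) lay 80.4 kb beyond the outermost OPC peak of Thrb, at -434.9 kb. The distances of the OPC peaks leave no closer TSS for it than that of Thrb, so it belongs to the same gene by the nearest-TSS rule but not by the rule used for the count.

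**Figure D2:**
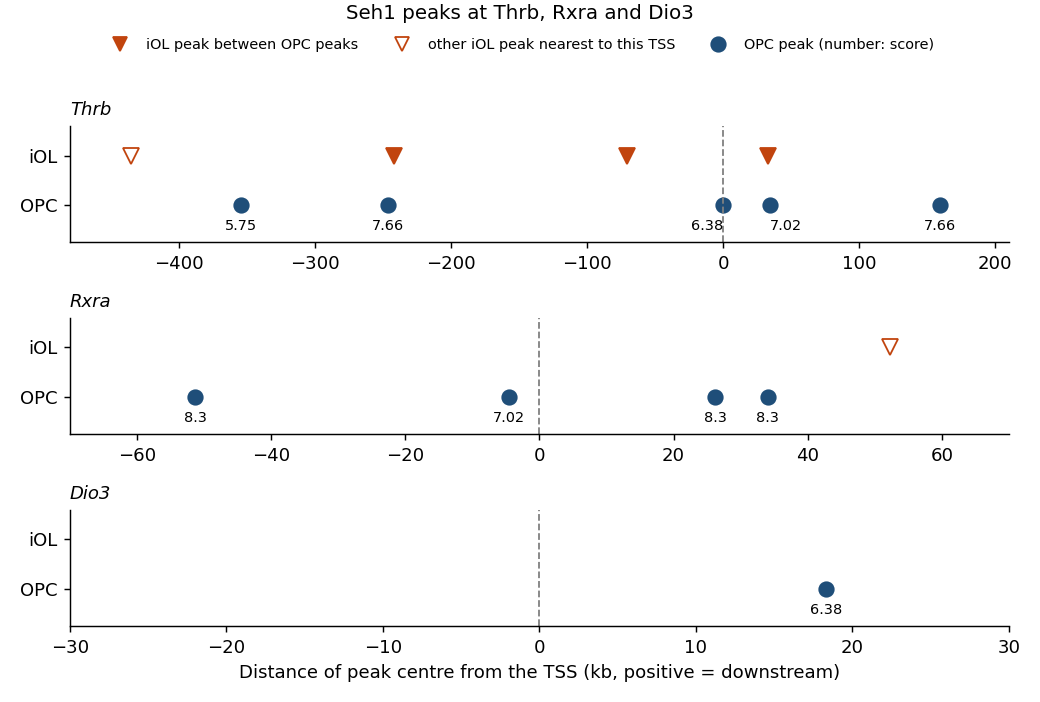
Positions of Seh1 peaks by distance from the TSS (x axis, kb, a different range in each panel) at Thrb, Rxra and Dio3, with iOL above OPC. Filled triangles are iOL peaks between OPC peaks of the gene, open triangles are further iOL peaks with the same nearest TSS, circles are OPC peaks and the numbers give their scores. iOL and OPC marks of Thrb fall close together at about 34.4 and -246.3 kb, and only OPC has a mark at the TSS.

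Promoters are shown for Thrb, for Thra as the receptor gene without a peak, and for Crebbp and Rasd2, the pathway genes with a promoter-class OPC peak. Each run covers 250 bases before to 50 bases after a gene start, from RefSeq on assembly GRCr8, 5′ to 3′ on the gene's strand, with CG dinucleotides in capitals. GRCr8 is not the build of the peaks, and the start in RefSeq may differ from the start used on rn6. Thra has a second promoter in the table, which is not shown.
Thrb, chr15:10461397-10461696, minus strand: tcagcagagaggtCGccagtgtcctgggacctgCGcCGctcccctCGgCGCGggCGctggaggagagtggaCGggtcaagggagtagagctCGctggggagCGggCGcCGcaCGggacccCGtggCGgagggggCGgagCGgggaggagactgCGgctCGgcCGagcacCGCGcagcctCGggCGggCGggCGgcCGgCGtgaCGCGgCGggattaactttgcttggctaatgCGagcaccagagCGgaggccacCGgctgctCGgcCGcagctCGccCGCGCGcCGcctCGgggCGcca
Thra, chr10:84197891-84198190, plus strand: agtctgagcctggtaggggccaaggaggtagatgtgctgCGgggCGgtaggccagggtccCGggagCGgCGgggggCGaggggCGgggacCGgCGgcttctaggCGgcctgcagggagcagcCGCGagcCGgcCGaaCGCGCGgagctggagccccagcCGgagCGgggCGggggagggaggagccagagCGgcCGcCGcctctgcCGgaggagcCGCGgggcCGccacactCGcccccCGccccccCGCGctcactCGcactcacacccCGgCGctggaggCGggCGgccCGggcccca
Crebbp, chr10:11842090-11842389, plus strand: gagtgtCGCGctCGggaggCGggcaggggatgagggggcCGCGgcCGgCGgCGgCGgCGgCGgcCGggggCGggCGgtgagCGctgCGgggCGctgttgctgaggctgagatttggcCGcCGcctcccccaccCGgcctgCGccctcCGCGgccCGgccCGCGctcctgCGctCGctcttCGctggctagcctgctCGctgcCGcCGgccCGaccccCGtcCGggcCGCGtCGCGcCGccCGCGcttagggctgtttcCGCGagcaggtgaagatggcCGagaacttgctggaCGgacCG
Rasd2, chr19:13599778-13600077, plus strand: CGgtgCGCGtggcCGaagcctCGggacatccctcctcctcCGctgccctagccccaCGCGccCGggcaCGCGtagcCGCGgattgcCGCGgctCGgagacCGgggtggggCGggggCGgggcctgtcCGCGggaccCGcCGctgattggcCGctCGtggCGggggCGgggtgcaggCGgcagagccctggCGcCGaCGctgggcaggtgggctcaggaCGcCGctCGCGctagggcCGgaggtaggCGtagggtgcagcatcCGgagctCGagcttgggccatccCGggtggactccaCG

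The Thrb promoter had 43 CG dinucleotides in this window and 76.0% G or C, and 97.9% of 33469 promoters had fewer CG dinucleotides. Crebbp had 48 and Rasd2 41. Thra, without a peak, had 37 in the promoter shown and 7 in its second promoter, and Rxra, without a promoter peak, had 62. CG-rich starts were therefore found at genes of the pathway with and without a promoter peak. Over 296 promoters of genes with a promoter-class OPC peak the median was 25, against 16 over 15738 promoters of coding genes with a curated transcript. The Dio2 promoter had 4, Dio3 23, Klf9 32 and Ncor1 34. Of the 8 genes 7 were in the promoter table.

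The half-site of thyroid hormone receptors was searched only as the exact string AGGTCA, on either strand. This string was not found in any of the 8 windows of the 7 genes or in those of Crebbp and Rasd2. It occurred in 16.2% of all promoters, so its absence from so few windows does not set these genes apart. Other forms of the half-site were not searched. The Thrb and Ncor1 windows hold GGGTCA, which differs from the searched string in its first base. That form was named after the windows were seen and was not counted over all promoters. Its presence therefore does not set these windows apart. The direct repeat of AGGTCA with a spacer of 4 bases, AGGTCANNNNAGGTCA, contains that string and occurred in 2 of 33469 promoters. The E-box CANNTG, bound by basic helix-loop-helix factors such as Olig2, was likewise not in the Thrb window. It was also absent from the windows of Rxra, Ncor1 and Dio2 and from the Thra promoter shown, so this was not particular to Thrb. The windows of Dio3, Klf9, Crebbp and Rasd2 and the second Thra promoter held this E-box. It occurred in 72.1% of all promoters.

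Rxra encodes retinoid X receptor alpha, the partner with which thyroid hormone receptors bind DNA. Its 4 OPC peaks lay within 85.6 kb on chromosome 3. From upstream to downstream they were at -51.3 kb (6160379 to 6160583, score 8.3), at -4.5 kb (6207193 to 6207397, score 7.02), at 26.2 kb (6237886 to 6238090, score 8.3) and at 34.0 kb (6245741 to 6245945, score 8.3). The first and second lay between genes. The remaining pair lay in intron 1 of 9, with centres 7855 bp apart. A score of 8.3 or more was reached by 27.6% of annotated OPC peaks, and the 3 peaks of Rxra at 8.3 were the only ones of the 10 above the median. Their focus ratios were 0.789, 0.762 and 0.739.

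No iOL peak lay between the OPC peaks of Rxra. Of 175 coding genes with 4 OPC peaks, 47.4% had at least 1 iOL peak between them, so the absence at Rxra was shared with over 50% of such genes. The closest iOL peak (6263894 to 6264102) was centred 18.2 kb beyond the last OPC peak, at 52.2 kb from the TSS. By the deposited distances no other TSS is closer to it. The iOL peak of Rxra and its OPC peaks thus lay in the same neighbourhood but none coincided.

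Dio3 encodes the deiodinase that inactivates T4 and T3. It had 1 OPC peak, between genes at 18.3 kb downstream (chromosome 6, 134645490 to 134645694). The score was 6.38 and the focus ratio 0.812. The nearest iOL peak was centred 218.9 kb away, and with a single OPC peak no iOL peak could be counted for the gene. Mir1247, a microRNA gene next to Dio3 in gene order, was the nearest TSS of an OPC peak between genes at 188.4 kb (134437689 to 134437893), with a score of 9.58. That peak lay upstream of Dio3 at almost the same distance, so its assignment rests on a small difference. It did not overlap an iOL peak.

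The remaining 5 genes had no OPC peak. Thra encodes thyroid hormone receptor alpha, the main receptor of OPC. Nr1d1, a circadian repressor gene known to overlap the 3′ end of Thra on the opposite strand, had 1 OPC peak in an intron at 1454 bp from its own TSS (chromosome 10, 86687174 to 86687378, score 7.02). Msl1, the next gene, had 1 in an exon at 569 bp (86711707 to 86711911, score 7.66). Csf3 and Med24 on the other side had none. Peaks were therefore called beside Thra on the Nr1d1 side, and none had the Thra TSS as its nearest.

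Dio2 encodes the deiodinase that makes T3 from T4. Its second neighbour Tshr, the receptor of thyroid stimulating hormone, had 1 intronic OPC peak at 85.5 kb (score 8.3, chromosome 6, 115256306 to 115256510). On the other side Nrxn3 and Adck1 had 1 each, at 206.1 kb and -34.2 kb with scores of 6.38, and Cep128 had none. Hr, which encodes the T3-induced corepressor Hairless, had Reep4 as a neighbour with 1 OPC peak in an exon at 2257 bp (chromosome 15, 52237438 to 52237642, score 6.38), while Hrurf, Nudt18 and Fhip2b had none. Ncor1, which encodes the corepressor NCoR1, and Klf9, a zinc finger gene induced directly by T3, had no OPC peak at any of their 4 coding neighbours. On 1 side of Klf9 the neighbours were LOC120100003 and LOC134485213, taken from the gene order of GRCr8. Whether the rn6 annotation could name these as a nearest TSS was not checked, so their lack of a peak carries no information. None of the peaks named at these neighbours overlapped an iOL peak. For these 5 genes iOL peaks could not be assigned, because their TSS positions on rn6 cannot be read from the annotation without an OPC peak.

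Scores of the 10 OPC peaks covered 5.75 to 8.3 with a median of 7.34, within an overall range of 5.11 to 197.3 with a median of 7.66. Above the median stood 3 of the 10 peaks, against 27.6% of all, and below it 5, against 48.1% of all. Scores fall on multiples of 0.638, so these peaks spanned 9 to 13 steps. The 10 peaks were thus ordinary in strength. A peak at or above the upper quartile of 8.3 was found at 1 of the 8 genes, Rxra, and at 11.1% of coding genes. The median distance from the TSS was 34.2 kb, against 34.8 kb over all annotated OPC peaks, and 6 of the 10 lay within 50 kb, against 57.7% of all. By class 5 lay between genes, 4 in introns and 1 at a promoter, where all annotated OPC peaks had 56.7%, 29.4% and 4.02% in these classes. In annotated repeats lay 0 of the 10, which allows a share of up to 30.0%, against 33.2% of all. The bound is for counting error only, and these peaks cluster at Thrb, Rxra and Dio3. They are not independent, so the bound does not set them apart.

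**Figure D3:**
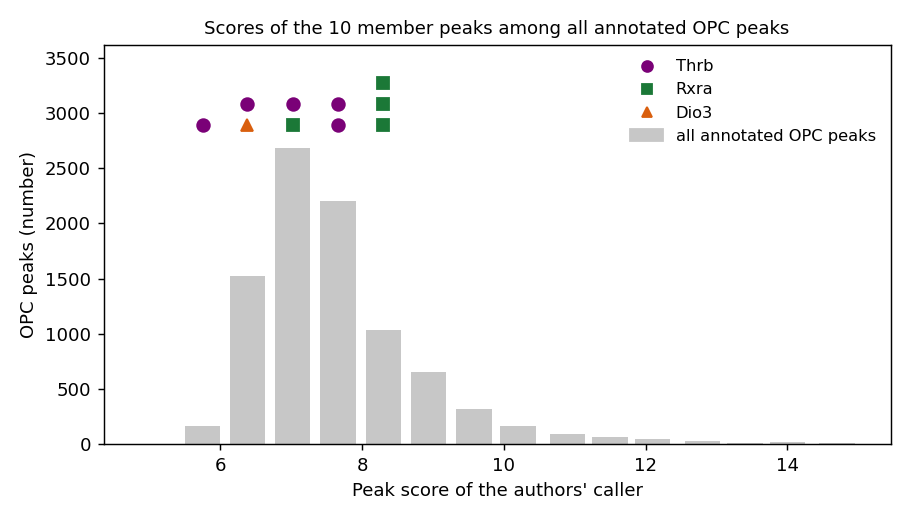
Scores given by the authors' caller (x axis) to annotated OPC peaks, with the number of peaks per score as grey bars up to a score of 15 and the 10 peaks at Thrb, Rxra and Dio3 as symbols above the bars. Rxra has 3 peaks at 8.3, while Thrb and Dio3 stay at or below the median of 7.66.

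An overlap of at least 1 bp with an iOL peak was found for 0 of the 10 OPC peaks, which allows a share of up to 30.0%, and for 1.73% of all annotated OPC peaks. An overlap of at least 50% of the OPC peak was found for 0 of 10 and 1.42% of all, and centres within 1 kb for 0 of 10 and 2.68% of all. Of the 3 iOL peaks at Thrb 0 overlapped an OPC peak, against 2.36% of all iOL peaks. With so low a background, 0 of 10 does not set these peaks apart. An iOL peak centre within 10 kb was found for 2 of the 10, both at Thrb (20.0%, exact binomial 95% interval 2.52 to 55.6%), and for 10.0% of all.

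Coding genes most like Thrb in pattern were sought among those with 5 OPC peaks and a nearest peak of promoter class, ranked by the distance of that peak from the TSS. Of 4 such genes, Nrp1, a receptor of semaphorins and VEGF, had its nearest peak at -63 bp (score 7.02), Myo9a at -36 bp (score 7.66) and Abhd5 at -218 bp (score 8.3). Their differences in distance from the Thrb peak were 24, 51 and 131 bp. Between their OPC peaks lay 1, 0 and 2 iOL peaks, against 3 at Thrb. The OPC peaks of Thrb spanned 514.2 kb, and the genes were not matched on span, so these counts are not scaled to length.

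The wider list held 45 other genes of hormone transport, deiodination, receptor cofactors and response. Of these, 17 had an OPC peak (37.8%, against 30.1% of coding genes), and 12 had one within 50 kb of the TSS (26.7%, against 22.1%). Together the 17 genes had 31 OPC peaks with scores of 6.38 to 33.2 and a median of 7.66. Overlap with an iOL peak was found for 2 of the 31 (6.45%, against 1.73% of all), and 13 lay in annotated repeats (41.9%, against 33.2% of all).

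Among 7 transporter genes 3 had an OPC peak, all within 50 kb, against 30.1% of coding genes at any distance and 22.1% within 50 kb. Slc7a8, which encodes the amino acid transporter LAT2, had a peak in intron 1 at 8.5 kb (score 6.38) and an upstream peak in an LTR repeat at -17.0 kb (score 8.3). Slco4a1 had 2, at -15.1 and 26.6 kb, each with a score of 7.02. Slco1c1, the T4 carrier of brain vessels and astrocytes, had 1 in an LTR repeat of an intron at 39.7 kb (score 7.66). None of these 5 peaks overlapped an iOL peak.

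Of 4 corepressor genes in the wider list 2 had an OPC peak, against 30.1% of coding genes, and 1 had it within 50 kb, against 22.1%. Tbl1xr1, which encodes a subunit of the corepressor complex, had an iOL peak and an OPC peak that overlapped by 168 bp, at -15.0 kb in a CpG island (chromosome 2, 107217886 to 107218094 in iOL and 107217927 to 107218131 in OPC, OPC score 8.94). Among the 8 genes and the 45, only this gene had overlapping iOL and OPC peaks outside an annotated repeat. Tbl1x, a related subunit gene, had its OPC peak in an annotated repeat at -190.9 kb (score 9.58), with no iOL peak overlapping it. The focus ratio of this peak was 0.531, and 0.341% of annotated OPC peaks were at or below it.

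Among 10 coactivator genes 3 had an OPC peak, which is the share of all coding genes (30.1%), and 2 had one within 50 kb, against 22.1%. Crebbp, which encodes the histone acetyltransferase CBP, had a promoter-class OPC peak at 45 bp (chromosome 10, 11594987 to 11595191, score 8.3, focus ratio 0.929) and another at -28.8 kb (score 7.02). The nearest iOL peak was centred 354.3 kb from the closer of them. Med1, a Mediator subunit that binds liganded receptors, had 1 at -1.6 kb in a 5S ribosomal RNA repeat (score 7.02). Ncoa2, named after its values were seen, had an OPC peak in a copy of 7SL RNA at 120.6 kb with a score of 33.2, which overlapped an iOL peak by 203 bp. An iOL peak was centred 567 bp from another OPC peak of Ncoa2, which lay in exon 16 of 20 (score 8.3), without overlap.

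Retinoid X receptor genes beyond Rxra had an OPC peak at 1 of 2, Rxrg, at -46.4 kb (score 6.38). Of 6 genes for deiodination and selenoprotein synthesis 2 had one, with Sepsecs, an enzyme that makes the selenocysteine tRNA, at -14.0 kb (score 7.02). Of 4 genes for hormone binding proteins 1 had one, and of 2 integrin genes for membrane signalling 0. With 30.1% of coding genes having an OPC peak, counts this small set none of these groups apart. Selenocysteine is the residue at the active site of all deiodinases, and none of the OPC peaks at these 6 genes lay within 10 kb of a TSS.

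Hormone-responsive genes had an OPC peak at 5 of 10, against 30.1% of coding genes, and 4 had one within 50 kb, against 22.1%. They had 14 peaks in all, 8 of them at 1 gene. Rasd2, which encodes the small GTPase Rhes and is known as a T3-induced gene of rat striatum, had these 8 within 63.7 kb on chromosome 19, a number reached by 0.0485% of coding genes. The highest, at -396 bp in the promoter (14652700 to 14652904), had a score of 9.58. The next lay in the 5′ UTR at 146 bp (14653242 to 14653446, score 7.02) and in a simple repeat of intron 1 at 1.9 kb (score 7.66). Further peaks stood at -5.3 kb (score 8.3) and -8.9 kb (score 7.02), at 26.2 kb (score 8.3), and at 53.9 and 54.6 kb (score 7.66 each). Of the 8 peaks 6 lay in annotated repeats. The nearest iOL peak was centred 218.0 kb from the closest of them, so the cluster was called in OPC alone.

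The myelin genes of the wider list had few peaks. Mbp, a major myelin protein gene that T3 induces, had 1 iOL peak between its OPC peaks, at 113.8 kb, and OPC peaks at 29.2, 190.5 and 201.0 kb, with scores of 7.02, 7.02 and 7.66. By the nearest TSS, the rule that would give Thrb 4 iOL peaks, Mbp had 3, the others at 22.3 and 28.0 kb. Its iOL peak at 28.0 kb was centred 1236 bp from the OPC peak at 29.2 kb, without overlap. Mag had 1 OPC peak in its last intron at 14.1 kb (score 7.66), and Bcl3 1 in a DNA transposon repeat at -18.6 kb (score 7.02). By the nearest TSS Bcl3 also had an iOL peak at -2.9 kb from its TSS, inferred with the strand in RefSeq.

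**Figure D4:**
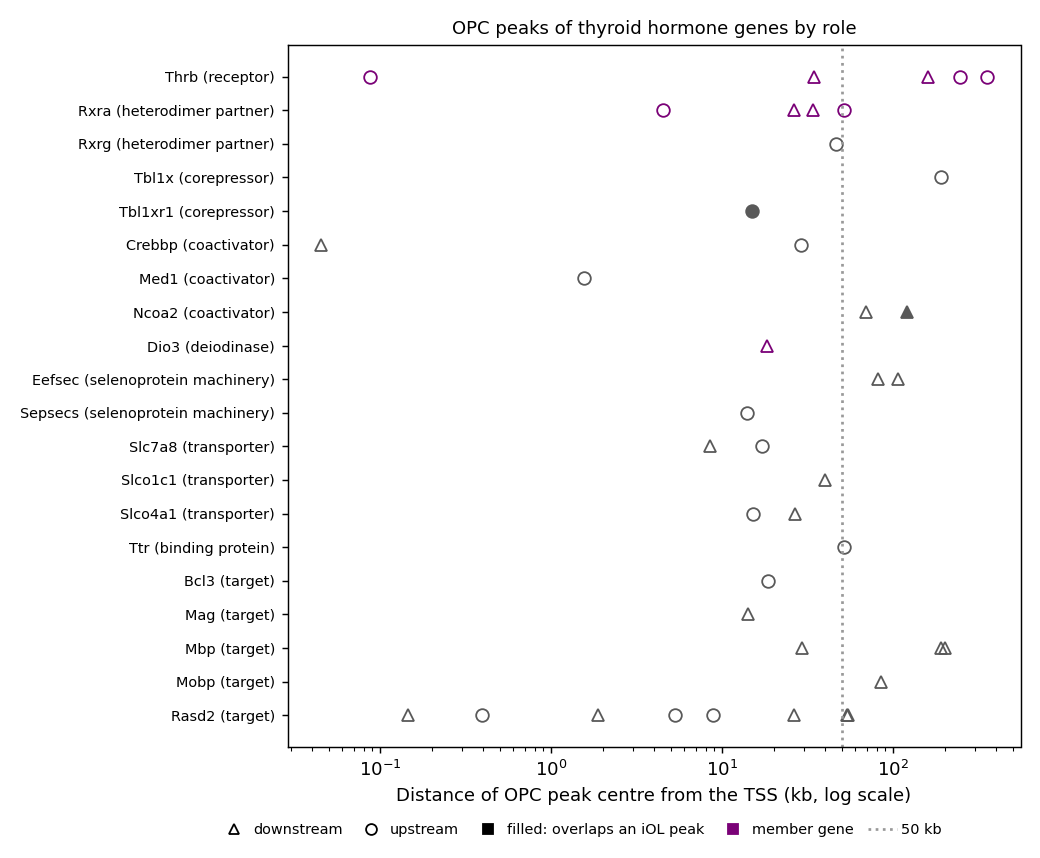
OPC peaks of each gene of thyroid hormone signalling that had any (rows, with the role in brackets), by distance from the TSS (x axis, kb, log scale). Triangles are downstream and circles upstream of the TSS, purple marks the genes Thrb, Rxra and Dio3, filled symbols overlap an iOL peak and the dotted line stands at 50 kb; symbols within 1 kb of a TSS belong to Thrb, Crebbp and Rasd2, and filled ones to Tbl1xr1 and Ncoa2.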

How the data were processed

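ChIP-seq peak lists of Seh1 in iOL and OPC were analysed, 1 library each. Bowtie2 and HOMER are named, without versions, in the submitters' processing notes, with builds rn6 and hg18. The sources used here give no caller settings or read filters, and how reads from repeats were placed could move peaks among copies. The authors deposited positions for both lists, and an annotation recorded under iOL. Per the file headers, annotatePeaks.pl (HOMER) made it on rn6, and the input name there joins Seh1 in OPC with IgG in iOL. Its 9084 intervals are all OPC intervals and 0 are iOL intervals, so it was used for OPC, of which 33 peaks are not annotated. This deposited table holds a score for each peak, without a definition, and the focus ratio, a fraction per peak given by the authors.

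Genes were matched by numeric ID to RefSeq names of assembly GRCr8 (99.2% of intervals), used for names and gene order. Coding genes are those with a curated transcript, 18539 in all; 44 of the 45 list genes are among them. TSS positions on rn6 were inferred from deposited distances. Where a gene had 1 peak its strand came from RefSeq, which gave the same strand as the peaks for 1420 of 1512 starts with several peaks. An iOL peak was placed at a gene when excluded intervals left no nearer TSS, which was right for 2795 of 2811 held-out OPC peaks (99.4%). Intervals are exact at 95% and a count of 0 was read as up to 3, for counting error only. Counting was tested on simulated data. The 8 genes, the lists and the rule for named genes were chosen with earlier results of these data known. Named are the 8 genes, list genes with an OPC peak within 50 kb of the TSS, 2 coding neighbours on either side of a gene without a peak, and the 3 genes most like the gene with most peaks. Mir1247, Ncoa2 and Tbl1x fall outside this rule. Some other pathway genes are not reported here. Python 3.11.15, pandas 2.3.3, numpy 2.4.6, scipy 1.17.1 and matplotlib 3.10.9 were used.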

Additional observations from a re-analysis of the deposited data

How the results depend on the processing

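Limits of 50 and 100 kb to the TSS and the removal of annotated repeats left 3 of the 8 genes with an OPC peak. With scores at or above the upper quartile (8.3), 1 gene remained, Rxra, with 3 of the 10 peaks, and 6 of 45 pathway genes. Within 50 kb 6 of the 10 peaks were counted. The number of OPC peaks shared with iOL was 0 with an overlap of at least 50% and with centres within 1 kb, and 2 with centres within 10 kb. The number of iOL peaks was 3, also with peaks up to the TSS or within 10 kb of an OPC peak, and 5 when peaks with the same nearest TSS were added, a setting chosen after seeing the data. The median score of 7.34 was 6.38 over the nearest peak of each gene and 8.3 without Thrb. Depth is unknown and no replicates exist, so a missing peak is not shown to be missing binding. No paired analysis was possible because each stage had 1 library.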

Other observations

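Further OPC peaks lay inside pathway genes but nearest to the TSS of another gene, and were not counted above. Slco1c1, the T4 carrier gene, held an OPC peak in its last intron (chromosome 4, 175774984 to 175775188, score 10.2) whose nearest TSS was that of Slco1b2. Slc7a8 held one in intron 7 of 10 nearest to Cebpe (score 8.94), and Eefsec, the selenocysteine elongation factor gene, one in its last intron nearest to Dnajb8 (score 6.38). None of these 3 peaks overlapped an iOL peak. The 8 genes of thyroid hormone signalling had no such peak. All these genes were named after their values were seen.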
